A study of Homo sapiens with 12 samples.

Results

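The high mobility group genes HMGN1, HMGN2, HMGN3, HMGN4, HMGN5, HMGA1, HMGA2, HMGB1, HMGB2 and HMGB3 were followed across KYSE150 and KYSE510, a pair of established cell lines of human esophageal squamous cell carcinoma. They are 10 of the 38516 genes in the deposited table. The set was chosen by measured values: HMGN5 was among the strongest falls when HCP5 was silenced in KYSE150, and the other 9 genes were taken as its relatives by name. The change of HMGN5 in KYSE150 is therefore given as a description, and no test of it is used as a result.

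RNA-seq was done on 12 libraries, 3 in each of 4 groups: control KYSE150, HCP5-silenced KYSE150, control KYSE510 and HCP5-silenced KYSE510. HCP5 is a long non-coding RNA gene of the major histocompatibility complex. All cells were grown in the same serum-containing medium. The silencing reagent and its sequence are not given in the sources used here, and the labels do not say whether replicates were separate cultures, so p-values measure only the spread between these libraries. In bulk RNA, fewer cells with a transcript and less transcript per cell cannot be told apart. The comparisons ask which of these genes differ with HCP5 silencing in each line, and which differ between the lines.

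High mobility group proteins are abundant non-histone proteins of chromatin and fall into 3 families. HMGN proteins bind the nucleosome core, loosen compact chromatin and compete with linker histone H1. HMGA proteins hold AT-hooks that grip the minor groove of AT-rich DNA; they are high in embryos and in many carcinomas, and HMGA2 mRNA is a classic target of the let-7 miRNAs. HMGB proteins hold HMG boxes that bend DNA, and HMGB1 outside the cell acts as a danger signal through the receptor AGER and Toll-like receptors.

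Of the 10 genes, 8 had an upstream window in the RefSeq promoter table (GRCh38.p14), 12 windows in all. Those of HMGN4, HMGN5 and HMGN2 are shown here because HMGN4 and HMGN5 were far lower in KYSE510 than in KYSE150 while HMGN2, the most abundant of the family, was higher. Each is written 5′ to 3′ on the strand of the gene, and only bases outside the gene as deposited are printed. Capitals mark matches, on either strand, to the E-box CACGTG, to CCAAT or to the GC box GGGCGG. The HMGN4 window is chr6:26538116-26538365 on the plus strand, that of HMGN5 is chrX:81201943-81202163 on the minus strand, and that of HMGN2 is chr1:26472190-26472439 on the plus strand.
HMGN4: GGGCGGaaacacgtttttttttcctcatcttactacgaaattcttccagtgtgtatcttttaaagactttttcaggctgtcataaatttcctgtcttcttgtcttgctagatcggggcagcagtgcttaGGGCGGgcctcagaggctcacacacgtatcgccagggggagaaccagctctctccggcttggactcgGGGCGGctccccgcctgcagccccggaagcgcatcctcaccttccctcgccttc
HMGN5: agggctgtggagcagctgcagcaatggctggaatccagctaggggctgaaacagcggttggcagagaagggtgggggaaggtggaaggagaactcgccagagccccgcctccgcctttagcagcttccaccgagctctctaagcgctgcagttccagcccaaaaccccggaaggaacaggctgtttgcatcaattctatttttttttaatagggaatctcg
HMGN2: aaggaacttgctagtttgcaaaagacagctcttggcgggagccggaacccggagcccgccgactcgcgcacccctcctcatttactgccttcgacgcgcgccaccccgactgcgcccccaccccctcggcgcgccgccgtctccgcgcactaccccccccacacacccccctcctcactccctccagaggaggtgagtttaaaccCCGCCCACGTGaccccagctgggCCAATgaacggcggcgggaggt

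The HMGN4 window held 3 GC boxes and no match to the other motifs, the HMGN5 window held none of the 3 motifs, and the HMGN2 window held 1 of each, with its E-box overlapping its GC box by a base. Of the 8 genes only HMGN2 had an E-box, a motif found in 6.34% of the 35116 RefSeq windows of 250 bases. The E-box was thus in 1 of the 12 windows of the set. CCAAT was in 7 of the 12 windows and in 32% of all windows, and the GC box in 8 of the 12 and in 42.6% of all windows; 3 of the 12 windows belong to HMGB1, and windows of 1 gene are not independent. The matches describe these letters only and were set against no binding data.

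Reads assigned to genes ran from 20035025 to 28202422 per library, and every silenced KYSE150 library was deeper than every control KYSE150 library. HCP5, the targeted gene, was low in all libraries. It averaged 0.770 ± 0.0220 RPKM (reads scaled to exon length and library depth; SD, n = 3) in control and 0.437 ± 0.133 in silenced KYSE150, and 1.39 ± 0.470 in control and 0.801 ± 0.257 in silenced KYSE510. It was lower in the silenced library in 6 of 6 same-numbered pairs, with ratios of 0.405 to 0.737, while neither line passed the test across all genes (limma adjusted p 0.267 and 0.646). Its mean change over both lines, a contrast added after the data were seen, did not pass either (limma adjusted p 0.185). It passed in a fit with the replicate number as a block (limma adjusted p 0.0295), which called 2.74% of all genes. The keratin genes KRT5, KRT14 and KRT17 and the squamous regulator TP63 were present in all 12 libraries. SOX2 was under 0.5 RPKM in every KYSE150 library and PKP1 in every KYSE510 library, and the 6 fibroblast markers together gave at most 0.901 RPKM in any library. The 4 endothelial markers summed to at most 0.107 RPKM in KYSE150 and to 0.643 to 2.09 in KYSE510, where only CDH5 reached 0.5 RPKM. Of the 5 leukocyte markers, which summed to 29.7 to 47.1 RPKM, PTPRC, CD3E, CD79A and LYZ were under 0.5 RPKM in every library and only CD68 was above it.

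The set held transcripts of very different abundance. HMGN2 was the highest of the 10 genes in all 4 groups and HMGA1 was next. In control KYSE150 the descending order after these was HMGB1, HMGN4, HMGN3, HMGB2, HMGN1, HMGB3, HMGN5 and HMGA2. In that order the ranges of HMGB1 and HMGN4, of HMGN4 and HMGN3, of HMGN3 and HMGB2, and of HMGN5 and HMGA2 overlapped, while all other neighbours were apart. In control KYSE510 the order after HMGN2 and HMGA1 was HMGN3, HMGB2, HMGB1, HMGB3, HMGN1, HMGN4, HMGA2 and HMGN5, and there HMGN2 and HMGA1, HMGB2 and HMGB1, and HMGB3 and HMGN1 overlapped. HMGN4 thus moved from the fourth place in KYSE150 to the eighth in KYSE510. The whole set accounted for 0.29% to 0.401% of the reads of a KYSE150 library and for 0.455% to 0.58% of those of a KYSE510 library.

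**Figure D1:**
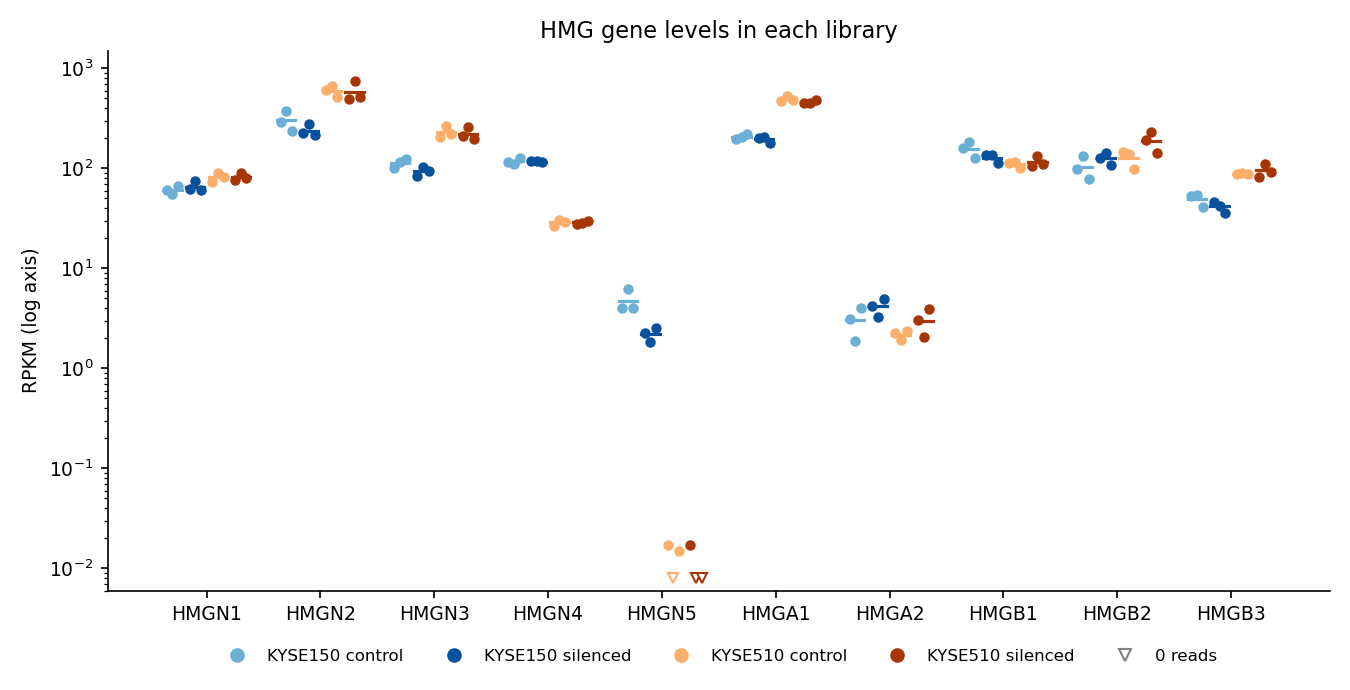
RPKM on a log axis of the 10 genes in each of the 12 libraries, coloured by group; short lines are means of 3 libraries and open triangles mark libraries with 0 reads. HMGN4 sits at 111 to 126 RPKM in the KYSE150 libraries and at 26.6 to 30.4 in the KYSE510 libraries, and HMGN5 is near 0 in KYSE510.

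HMGN5, the X-linked member with a long acidic tail (chromosome X, 81113701 to 81201942, minus strand, 9 merged exons), was a low transcript of KYSE150. Its 3 control KYSE150 libraries held 4.05, 6.19 and 3.99 RPKM, from 196, 307 and 219 reads. The 3 silenced KYSE150 libraries held 2.27, 1.83 and 2.55 RPKM, from 144, 125 and 166 reads. All silenced values lay below all control values, as for 5.47% of all genes tested, and 19.2% had no overlap in either direction. The highest control library, replicate 2, was paired by number with the lowest silenced library. The mean went from 4.74 ± 1.25 to 2.22 ± 0.359 RPKM (SD, n = 3), a ratio of 0.467. The log2 fold change was -0.93 (SE 0.15) on the scale log2(RPKM + 0.5), which understates the change of low genes. The silenced-to-control ratios of the 3 pairs ran from 0.296 to 0.638. By log2 fold change alone it was the fall of rank 35 among the 17823 genes tested. A narrower ranking kept only falls with a limma adjusted p under 0.05, a mean of at least 1 RPKM and no overlap of groups. There it lay between PEX3 at -0.96 and VAMP3 at -0.89, so the lack of overlap was a condition of that ranking. HMGN5 met the condition on adjusted p in 11 of 24 alternative settings and lost it in 13, so its place there depended on the setting.

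In KYSE510, HMGN5 was at or near 0. The controls held 1, 0 and 1 reads and the silenced libraries 1, 0 and 0 reads. A library with 0 reads allows up to 0.0491 to 0.0588 RPKM, the level of 3 reads, by counting error alone. No fold change on silencing is given for KYSE510, since 3 reads in 6 libraries cannot show one. HMGN5 passed the filter on low values only through its level in KYSE150, so it had to differ between the lines, and its line difference is given without a test. Per read of depth, control KYSE150 held 438.5 times the HMGN5 of control KYSE510 (exact 95% interval 121 to 3627, counting error only). Between the silenced groups the ratio was 373.8 (66.7 to 1.48e+04).

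The 3 genes whose levels followed HMGN5 most closely were ASUN, USP16 and RP11-423P10.2. Their Pearson correlations with HMGN5 were 0.948, 0.92 and 0.917 over 12 libraries, each library taken as its deviation from the mean of its line. They were the highest of all tested genes with a mean of at least 1 RPKM, and the fall that chose HMGN5 is part of the variation followed. The points share libraries and depth, and HMGN5 varied in 6 of them only, so these values are a description. ASUN held 36.2, 39.3 and 32.7 RPKM in control KYSE150 and 29.9, 27.5 and 29.6 in silenced KYSE150. It also peaked in control replicate 2 and was lowest in silenced replicate 2, as HMGN5 was.

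HMGN4, a close relative of HMGN2 encoded on chromosome 6 (26538405 to 26546254, plus strand), was the member with the largest line difference among those tested. Control KYSE150 libraries held 114.5, 111.1 and 126 RPKM and control KYSE510 libraries 26.6, 30.4 and 29.3. The groups were far apart, at 117.2 ± 7.8 and 28.8 ± 1.94 RPKM (SD, n = 3), so KYSE150 held 4.07 times as much. Between the control lines, 64% of all genes tested had groups that did not overlap. The log2 fold change of KYSE510 over KYSE150 was -2.01 (adjusted p 1.18e-09 by limma, SE 0.07). The silenced libraries gave the same picture, with 117.2, 117.2 and 116.1 RPKM in KYSE150 and 28.1, 28.2 and 30.1 in KYSE510 (log2 fold change -2.003, limma adjusted p 1.17e-09). On silencing, HMGN4 differed by -0.0026 (95% interval -0.17 to 0.16) in KYSE150 and by 0.0017 (-0.16 to 0.17) in KYSE510 on the log2 scale.

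HMGN1, HMGN2 and HMGN3 went the other way. HMGN2, the main family member by level (chromosome 1, 26472450 to 26475972), held 288.1, 378.9 and 238 RPKM in control KYSE150 and 602.7, 660.3 and 518.6 in control KYSE510. The lowest KYSE510 control lay above the highest KYSE150 control, with a log2 fold change of 0.996 (adjusted p 0.000876 by limma, SE 0.19). Of all genes tested, 28.5% were higher in control KYSE510 without overlap. HMGN3, a partner of the thyroid hormone receptor (chromosome 6, 79201245 to 79234738, minus strand), averaged 113.3 ± 10.6 RPKM in control KYSE150 and 230.3 ± 29.9 in control KYSE510 (SD, n = 3). Its log2 fold change was 1.02 (adjusted p 3.99e-05 by limma, SE 0.13). HMGN3 shares 193 exon bases, 19.03% of its own, with the antisense gene HMGN3-AS1, which averaged 10.05 and 23.4 RPKM in the same groups; the use of strand in counting is not given in the sources used here, so their reads may be mixed. HMGN1, a family member involved in DNA repair (chromosome 21, 39342315 to 39349647), differed least, at 60.8 ± 5.81 and 81.7 ± 8.22 RPKM (log2 fold change 0.42, adjusted p 0.00585 by limma, SE 0.11).

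Between the silenced groups HMGN2 and HMGN3 were again higher in KYSE510, by 1.27 (SE 0.19) and 1.24 (SE 0.13) on the log2 scale, with limma adjusted p-values of 0.00014 and 7.95e-06. HMGN1 was higher by 0.33 (adjusted p 0.0222 by limma, SE 0.11). That call was lost without silenced KYSE150 replicate 1 or 3 or silenced KYSE510 replicate 2, with limma adjusted p-values of 0.0701, 0.0821 and 0.0859.

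The make-up of the HMGN family differed accordingly. HMGN4 formed 16.7% to 24% of the summed HMGN RPKM in the 6 KYSE150 libraries and 2.52% to 3.66% in the 6 KYSE510 libraries. HMGN2 formed 42.7% to 56.8% in KYSE150 and 61% to 66.3% in KYSE510. HMGN3 formed 17.2% to 22% in KYSE150 and 22.7% to 25.9% in KYSE510. HMGN1 formed 8.28% to 13% and 8.02% to 9.74%, ranges that overlapped. HMGN5 reached at most 0.928% of the family, in control KYSE150 replicate 2. Its shares of 0.712% to 0.928% in control and 0.319% to 0.521% in silenced KYSE150 restate the fall on which it was chosen.

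**Figure D2:**
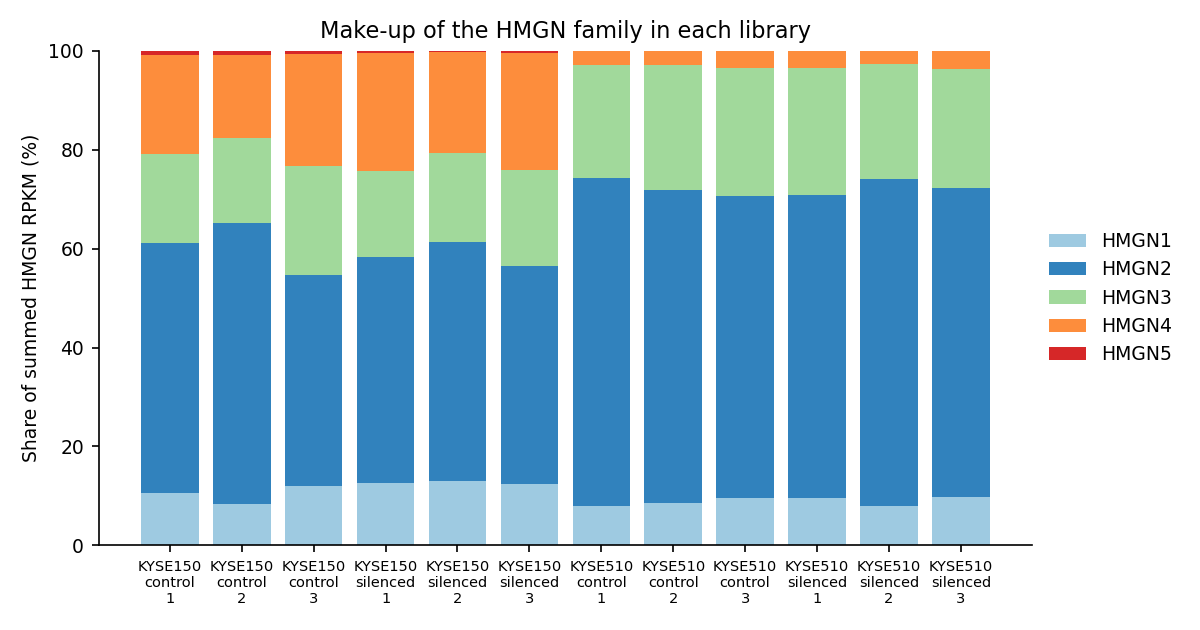
Share (%) of the summed HMGN RPKM held by HMGN1 to HMGN5, stacked, in each of the 12 libraries. HMGN4 is a broad band of 16.7% to 24% in KYSE150 and a thin band of 2.52% to 3.66% in KYSE510, where HMGN2 takes 61% or more.

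HMGA1, an AT-hook protein high in many carcinomas (chromosome 6, 34236873 to 34246231), was 2.4 times as high in control KYSE510 as in control KYSE150. The KYSE150 controls held 195.9, 205.5 and 219.2 RPKM and the KYSE510 controls 475.4, 526.3 and 487.2. The gap between the groups was many times their spread, 206.9 ± 11.7 against 496.3 ± 26.6 RPKM (SD, n = 3), with a log2 fold change of 1.26 (adjusted p 1.46e-07 by limma, SE 0.08). The silenced groups differed by 1.23 (adjusted p 1.79e-07 by limma, SE 0.08). On silencing, HMGA1 differed by -0.08 (95% interval -0.26 to 0.11) in KYSE150 and by -0.10 (-0.29 to 0.09) in KYSE510.

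HMGA2, its oncofetal relative (chromosome 12, 65824131 to 65966295), was low in both lines and supplied 0.36% to 2.7% of summed HMGA RPKM. It held 3.14, 1.87 and 4.03 RPKM in control KYSE150 and 4.25, 3.27 and 4.96 in silenced KYSE150. In KYSE510 the controls held 2.25, 1.90 and 2.35 RPKM and the silenced libraries 3.07, 2.05 and 3.90. The groups overlapped in each line, while each silenced library lay above the control of its own number. The line difference of the controls was -0.35 (adjusted p 0.236 by limma, SE 0.25). Without control KYSE150 replicate 2, the lowest of its group, it was -0.61 and passed (limma adjusted p 0.0375). The silenced groups differed by -0.43 (adjusted p 0.149 by limma, SE 0.25).

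HMGB1, the most abundant HMGB transcript in control KYSE150 (chromosome 13, 30456704 to 30617597, minus strand), held 159.9, 183.9 and 125.9 RPKM there and 113.1, 114.9 and 100.6 in control KYSE510. All KYSE510 controls lay below all KYSE150 controls (log2 fold change -0.50, adjusted p 0.00888 by limma, SE 0.14), as for 35.5% of all genes tested. The silenced groups held 127.5 ± 13.2 and 116 ± 14.2 RPKM (SD, n = 3), overlapped and did not pass (-0.14, adjusted p 0.407 by limma, SE 0.14). The sign of this last value turned with median centring (0.05) and with voom (0.11).

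HMGB1 has many processed copies, and how reads are split between near-identical sequences can move its value. The table lists 40 HMGB1 pseudogenes by name, whose reads together came to 56.4% of those of HMGB1. Most came from HMGB1P5 on chromosome 3, at 475.2 ± 123 RPKM in control and 323.8 ± 50.2 in silenced KYSE150, and 360.5 ± 50.4 in control and 398.9 ± 47.3 in silenced KYSE510 (SD, n = 3). With all pseudogene reads added to HMGB1, the control lines differed by -0.49 (limma adjusted p 0.0167) and the silenced lines by 0.0016. The share was far smaller for the other genes with listed pseudogenes: 5.02% for HMGN2 with 34 copies, 2.24% for HMGN1 with 25, 1.01% for HMGB3 with 22 and 0.84% for HMGA1 with 7. No pseudogene of HMGN4, HMGN5 or HMGA2 was listed by name.

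HMGB3, the X-linked HMGB gene (chromosome X, 150980509 to 150990775), averaged 49.6 ± 7.36 RPKM in control KYSE150 and 88.3 ± 1.07 in control KYSE510 (SD, n = 3). The groups were apart, with a log2 fold change of 0.84 (adjusted p 0.000232 by limma, SE 0.14), and 1.18 between the silenced groups (adjusted p 1.56e-05 by limma, SE 0.14). HMGB2, a gene of dividing cells (chromosome 4, 173331695 to 173335125, minus strand), overlapped between the control lines, at 103.2 ± 27.2 and 127.1 ± 25 RPKM (log2 fold change 0.31, adjusted p 0.246 by limma, SE 0.22). The silenced lines were apart, at 125.6 ± 17.5 and 189.4 ± 44 RPKM (0.57, adjusted p 0.0418 by limma, SE 0.22). Of all genes tested, 64% had no overlap between the control lines and 69.7% between the silenced lines. The call of HMGB2 was lost with no filter on low values (limma adjusted p 0.0857). It was also lost without control KYSE150 replicate 1, silenced KYSE150 replicate 1 or 3, control KYSE510 replicate 2 or silenced KYSE510 replicate 1 or 2 (limma adjusted p 0.0506 to 0.157).

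HMGN5 is left out of the counts between lines, since the filter fixes its direction. Of the other 9 genes, 7 passed between the control lines, a call being a limma adjusted p under 0.05 over 17823 genes: HMGN1, HMGN2, HMGN3, HMGA1 and HMGB3 were higher in KYSE510, and HMGN4 and HMGB1 lower. Of all genes tested, 62% were called, so a high share is the rule between these lines. Between the silenced lines 7 of the 9 again passed, 6 higher and 1 lower, against 64.1% of all genes. There HMGB2 was called and HMGB1 was not. Over all genes the median log2 difference was -0.07 between the control lines and -0.19 between the silenced lines, and it moved to -0.04 and -0.01 with median centring. Both counts stayed at 7 of 9 with that scaling. The silencing median in KYSE150 moved from 0.08 to -0.05.

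**Figure D3:**
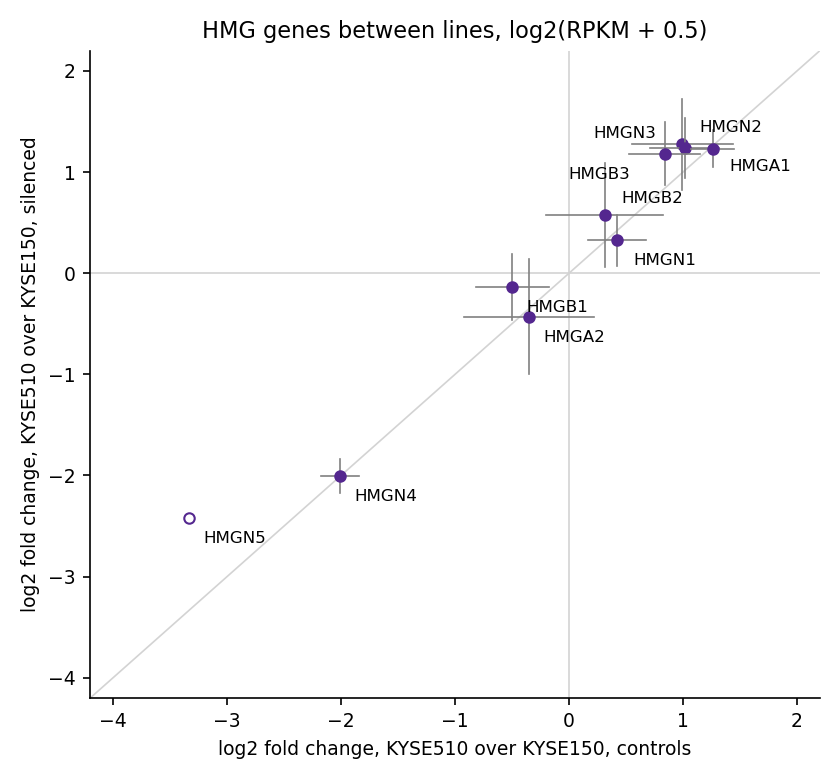
Log2 fold change of KYSE510 over KYSE150 on log2(RPKM + 0.5), in controls (x axis) and in silenced cells (y axis), with 95% intervals of the limma fit as grey bars; HMGN5 is open, without intervals, because it passed the filter only through KYSE150. HMGN4 lies at -2.01 and -2.003, HMGA1 at 1.26 and 1.23, and HMGB2 and HMGB3 are among the genes above the diagonal.

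Of the 9 genes other than HMGN5, none passed the test on HCP5 silencing in either line. In KYSE150, where 0.499% of all genes were called, their lowest unadjusted limma p was 0.0603. In KYSE510, where 0.0393% of all genes were called, HMGB2 had an unadjusted limma p of 0.0277 and the other 8 were above 0.05. The difference of the silencing change between lines was called for none of the 9 and for 0% of all genes, and the lowest unadjusted limma p was 0.0952, for HMGB1. With the replicate number as a block, still none of the 9 passed in these 3 comparisons, while 6.7% of all genes were called in KYSE150, 0.112% in KYSE510 and 0% for the difference. In that fit HMGB1, HMGB3 and HMGN3 had unadjusted limma p-values of 0.0177, 0.0214 and 0.0434 for the difference between lines, where 4610 of all genes were under 0.05.

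In KYSE150, HMGN2, HMGN3, HMGB1 and HMGB3 had lower values in the silenced library of each of the 3 pairs, a pattern whose share among all genes is not given here. Their log2 fold changes were -0.32 (SE 0.19), -0.27 (SE 0.13), -0.28 (SE 0.14) and -0.25 (SE 0.14), against a median of 0.08 over all genes. None passed, with limma adjusted p-values of 0.397, 0.295, 0.309 and 0.352, and of 0.0858, 0.052, 0.0769 and 0.102 with the replicate block. With voom, a weighted fit on the recovered read counts, plus the block, all 4 passed (limma adjusted p 0.0029 to 0.0184), in a fit that called 2706 of 17823 genes. In KYSE510 their values were -0.04, -0.05, 0.08 and 0.10, and HMGN2 turned sign with voom.

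**Figure D4:**
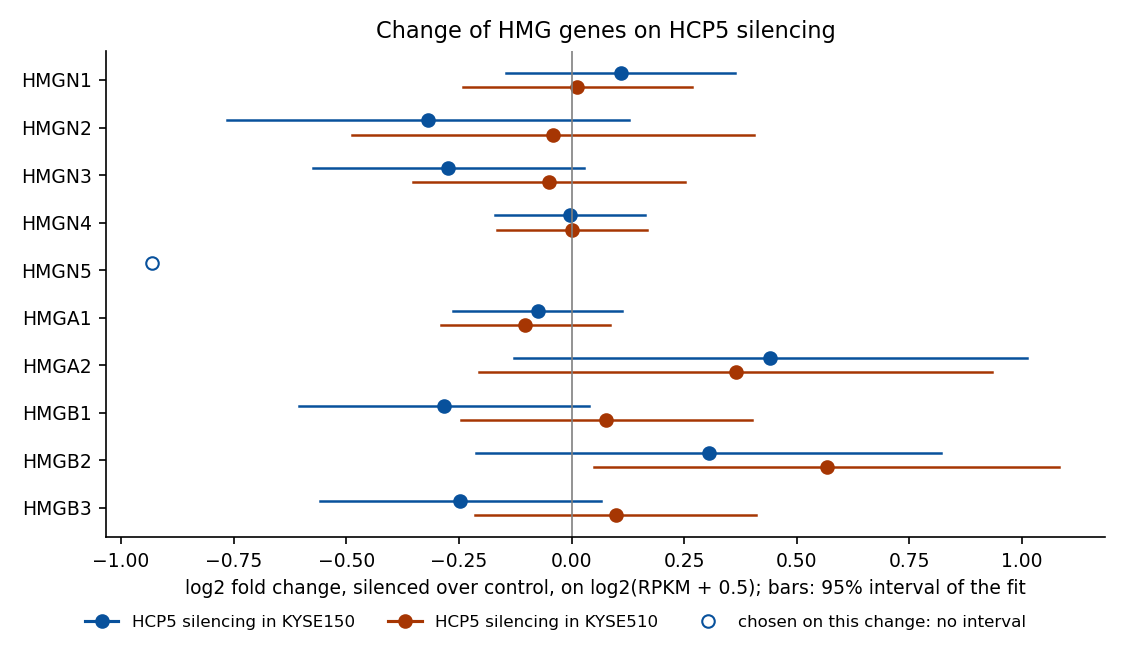
Log2 fold change of silenced over control on log2(RPKM + 0.5) for each gene in KYSE150 (blue) and KYSE510 (brown), with 95% intervals of the limma fit; the open circle is HMGN5 in KYSE150, shown without an interval because the set was chosen on it, and HMGN5 in KYSE510 is left out at 3 reads. HMGB2 in KYSE510, at 0.57, is the only tested gene whose interval does not reach 0.

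HMGB2 and HMGA2 were the members with higher values in the silenced library of all 6 same-numbered pairs. They were picked out of the 10 genes for this pattern, and the share of all genes with it is not given here. HMGB2 held 99.4, 132.2 and 78.1 RPKM in control KYSE150 and 126.4, 142.7 and 107.7 in silenced KYSE150. In KYSE510 it held 144.7, 138.2 and 98.5 RPKM in controls and 192.3, 232 and 144.1 in silenced libraries. The groups overlapped in each line and replicate 3 was the lowest of every group, while within pairs the silenced-to-control ratio ran from 1.08 to 1.68. The log2 fold change was 0.31 (adjusted p 0.483 by limma, SE 0.22) in KYSE150 and 0.57 (adjusted p 0.699 by limma, SE 0.22) in KYSE510. For HMGA2 the pair ratios ran from 1.08 to 1.75, and the log2 fold changes were 0.44 (adjusted p 0.361 by limma, SE 0.25) and 0.36 (adjusted p 0.919 by limma, SE 0.25). Single libraries moved these values by over 1.5 times. HMGB2 in KYSE150 was 0.12 without control replicate 3 and 0.50 without control replicate 2, and HMGA2 in KYSE150 was 0.18 without control replicate 2. HMGA2 in KYSE510 was 0.18 without silenced replicate 3 and 0.58 without silenced replicate 2. With voom and the block HMGA2 passed in KYSE150 and KYSE510 (limma adjusted p 0.0228 and 0.0249). HMGB2 passed there in KYSE510 only (limma adjusted p 0.00433). Those fits called 2706 and 485 of 17823 genes.

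The mean silencing change over both lines, a contrast added after these values were seen, was 0.44 (SE 0.16) for HMGB2 and 0.40 (SE 0.17) for HMGA2. Neither passed (limma adjusted p-values of 0.317 and 0.409, unadjusted 0.0186 and 0.0414), none of the 9 did, and 0.539% of all genes were called. With the replicate block HMGB2 passed (adjusted p 0.0236 by limma, SE 0.06) and HMGA2 did not (limma adjusted p 0.0615), in a fit that called 2.74% of all genes. With voom and the block both passed (limma adjusted p 0.00276 and 0.00285), in a fit that called 1232 of 17823 genes. The change of neither gene differed between the lines beyond its error: the differences were 0.26 (95% interval -0.47 to 0.99) for HMGB2 and -0.08 (-0.88 to 0.73) for HMGA2, and the latter turned sign with median centring, quantile normalization and voom.

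**Figure D5:**
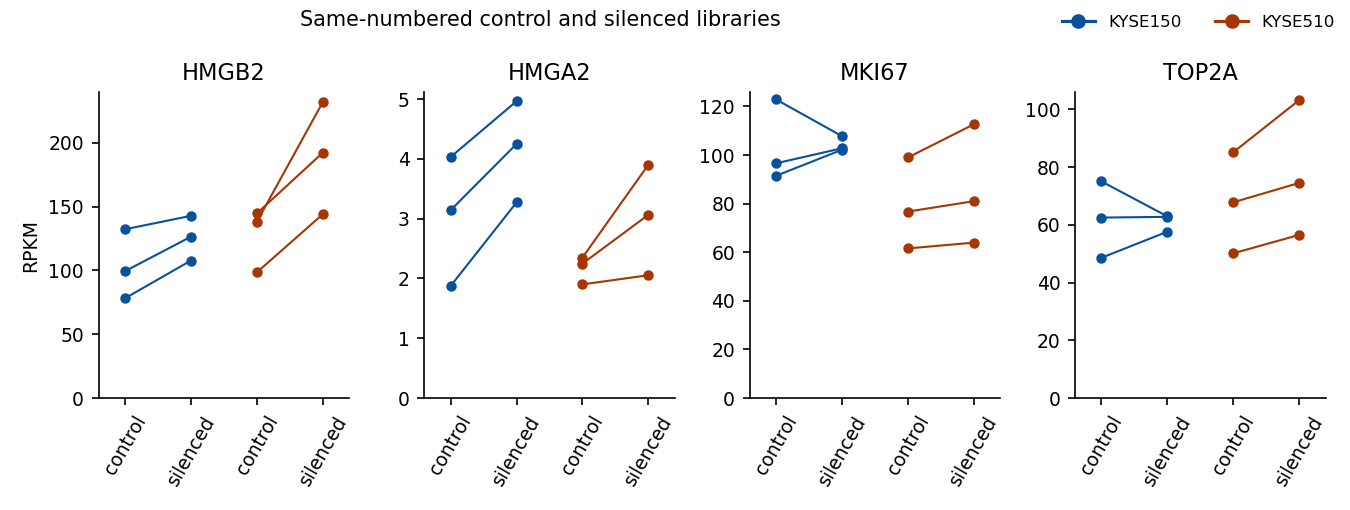
RPKM of HMGB2, HMGA2 and the proliferation genes MKI67 and TOP2A in each control library (left of a pair) joined to the silenced library of the same number, for KYSE150 (blue) and KYSE510 (brown). All 6 lines rise for HMGB2 and for HMGA2, and 5 of 6 for MKI67. For TOP2A the silenced-to-control ratios run from 0.839 to 1.21.

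Because HMGB2 is transcribed in dividing cells, the proliferation genes are given beside it. MKI67, the gene of the Ki-67 antigen, was higher in the silenced library of 5 of 6 pairs, with ratios of 0.877 to 1.14, a narrower span than that of HMGB2. The ratios of TOP2A had a wider span than those of MKI67, at 1, 0.839 and 1.19 in KYSE150 and 1.1, 1.21 and 1.13 in KYSE510. None of the 25 proliferation genes was called on silencing in either line, and 2 were in KYSE150 with the replicate block, which called 6.7% of all genes. Their log2 fold change was positive for 20 of 25 in KYSE150, with a median of 0.08 against 0.08 over all genes, and for 11 of 25 in KYSE510. Their summed level ran from 1441 to 1555 RPKM in control and 1455 to 1565 in silenced KYSE150, and from 1314 to 1486 and 1270 to 1463 in KYSE510. Of the 10 squamous markers, 9 had a positive log2 fold change in each line. Their summed level ran from 533 to 1181 RPKM in control and 838.4 to 2290 in silenced KYSE150, and from 659.4 to 1219 and 861.4 to 2074 in KYSE510, ranges that overlapped. None was called in either line alone. With the replicate block 8 were in KYSE150 and 1 in KYSE510, where that fit called 6.7% and 0.112% of all genes. TP63 alone of the 10 passed for the mean over lines (0.32, limma adjusted p 0.0483). That contrast was added after the data were seen and called 0.539% of all genes. The part of proliferation, squamous differentiation or depth in the HMGB2 and HMGA2 values was not tested.

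The genes that work with these families are given from lists of known partners. Of the linker histones, which compete with HMGN proteins for nucleosomes, 5 of 5 tested differed between the control lines, against 62% of all genes, with a median log2 difference of 1.03 against -0.07 over all genes. Both the count and the median include HIST1H1B. It was under 0.5 RPKM in every KYSE150 library, so the filter fixed its direction. H1F0, a linker histone of slowly dividing and differentiated cells, averaged 48.3 ± 10.8 RPKM in control KYSE150 and 139.7 ± 6.44 in control KYSE510 (log2 fold change 1.55, limma adjusted p 6.93e-05). HIST1H1C was higher by 1.03 (limma adjusted p 6.77e-05), and HIST1H1E, at 2.57 and 1.36 RPKM, was lower in KYSE510 (log2 fold change -0.73, limma adjusted p 0.00107). On silencing 0 of the 5 were called in either line.

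Of the let-7 axis, whose miRNAs repress HMGA2 and whose mRNA-binding proteins IGF2BP1, IGF2BP2 and IGF2BP3 protect such targets, 6 of 9 tested differed between the control lines, 4 higher and 2 lower in KYSE510, a share near the 62% of all genes. IGF2BP1 is counted there. It was under 0.5 RPKM in every KYSE150 library, so the filter fixed its direction and no test of it is given. It averaged 0.0172 ± 0.0108 RPKM in control KYSE150 and 4.23 ± 0.319 in control KYSE510. IGF2BP3 had a log2 fold change of 2.33 (limma adjusted p 9.36e-09). IGF2BP2 went the other way, at 34.05 ± 5.81 and 18.4 ± 0.313 RPKM (-0.86, limma adjusted p 4.61e-05). LIN28A and LIN28B, which block let-7 maturation, were under 0.5 RPKM in every library. HMGA2 itself did not pass between the lines, and 0 of the 9 were called on silencing in either line.

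Of the receptors and partners of HMGB proteins, 4 of 9 tested differed between the control lines, against 62% of all genes. CD24, a surface protein that binds extracellular HMGB1, averaged 2.495 ± 1.01 RPKM in control KYSE150 and 65.1 ± 11.3 in control KYSE510 (log2 fold change 4.49, limma adjusted p 2.97e-08). APEX1, a base excision repair nuclease found with HMGB2 in the SET complex, differed by 0.84 (limma adjusted p 1.45e-05), and the deacetylase SIRT1 by -0.56 (limma adjusted p 0.000471). TLR2, TLR4 and TLR9 were under 0.5 RPKM in every library. Of the other genes with HMG boxes, 9 of 18 tested differed between the control lines, 2 higher and 7 lower, with a median of -0.16, again against 62% of all genes. The 18 include TOX, which was under 0.5 RPKM in every KYSE150 library, so the filter fixed its direction. On silencing 0 of these 9 and 0 of these 18 were called in either line, and with the replicate block 2 and 3 were in KYSE150, where that fit called 6.7% of all genes.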

How the data were processed

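Polyadenylation selection, read layout and strand are not given in the sources used here. RNA was extracted with TRIzol and made into Illumina libraries, per the labels' protocols; the submitters' processing notes name HISAT2, DESeq and GRCh38 without their roles. The authors deposited 1 table of RPKM for 38516 genes with exon positions, and 0 of its value columns were left unmapped. RPKM times exon length gave whole reads (within 0.01) for 100% of values, and the reads so recovered sum to the depth that each library's scale implies. A change in a few abundant genes moves the RPKM of every other gene. Intervals on reads cover counting error only.

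Genes with at least 0.5 RPKM in at least 3 libraries (17823) were tested with limma 3.58.1 in R 4.3.3 on log2(RPKM + 0.5). The fit had 4 group means, 8 residual degrees of freedom, a mean-variance trend, two-sided tests, 95% intervals on the residual degrees of freedom and Benjamini-Hochberg adjustment over all genes tested. The scripts were tested on simulated data. Members and lists were chosen with earlier results of these data known. All 10 members are named; of other lists at most 3 genes per direction past the threshold, with a mean of at least 1 RPKM, were eligible. Same-numbered control and silenced libraries deviated together in both lines (correlations of 0.147 to 0.415 in 6 of 6 pairs, against -0.385 to 0.184 between other numbers). Control KYSE150 replicate 2 followed silenced replicate 1 (0.184) more than its own number (0.147), and no label says what the number marks. The number was taken to pair libraries within a line, and a fit with 6 such blocks left 4 residual degrees of freedom. Alternatives changed the pseudocount, filter, trend, scaling, test, block and libraries.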

Additional observations from a re-analysis of the deposited data

How the results depend on the processing

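Between the lines the count of called genes, without HMGN5, was 7 of 9 for controls and for silenced cells, and 5 to 8 over the settings run. For silencing in KYSE150 the count over the same 9 genes was 0 in every setting but voom with the replicate block. That fit called 5 of the 9 in KYSE150 (HMGN2, HMGN3, HMGA2, HMGB1 and HMGB3) and 2706 of the 17823 genes tested. In KYSE510 it called 2 in place of 0 (HMGA2 and HMGB2) and 485 of all genes. For the difference between lines it called 3 in place of 0 (HMGN3, HMGB1 and HMGB3) and 993 of all genes. For the mean over lines it called 3 in place of 0 (HMGN3, HMGA2 and HMGB2) and 1232 of all genes. The replicate block alone gave 1 for the mean over lines (HMGB2) and the main count in the other silencing comparisons; it is nested in the line, so no line comparison was fitted with it. Over all genes, voom called 161 in KYSE150 and 24 in KYSE510, and 2706 and 485 with the block, against 89 and 7; the block on RPKM called 1194 and 20. The cause was not tested.

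Signs turned for values near 0. With median centring HMGN1 in KYSE150 was -0.0208, HMGB1 between silenced lines 0.0476, and the line differences of silencing were 0.0596 for HMGN1, 0.1279 for HMGA1 and 0.0786 for HMGA2. With quantile normalization HMGN4 was 0.0375 in KYSE150, -0.0167 for the difference and 0.0292 for the mean, and HMGA2 0.0773 for the difference. With voom HMGN2 in KYSE510 was 0.0024, HMGB1 between silenced lines 0.1079, and the differences 0.0573 for HMGN1, 0.1238 for HMGA1 and 0.0784 for HMGA2. With voom and the block HMGN1 in KYSE150 was -3e-04, HMGN2 in KYSE510 6e-04, and the differences 0.0568, 0.1252 and 0.0921 for HMGN1, HMGA1 and HMGA2. With pseudogene reads added, a setting chosen after seeing the data, HMGB1 between silenced lines was 0.0016.

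Without single libraries, ranges that crossed 0 were -0.04 to 0.0504 for HMGN4 in KYSE150. In KYSE510 they were -0.0633 to 0.0818 for HMGN1, -0.2246 to 0.0617 for HMGN2, -0.1704 to 0.0518 for HMGN3, -0.0523 to 0.0419 for HMGN4, -0.0181 to 0.149 for HMGB1 and -0.0187 to 0.2 for HMGB3. For the difference they were -0.0497 to 0.0445 for HMGN4, -0.0944 to 0.0153 for HMGA1 and -0.2851 to 0.1815 for HMGA2, and for the mean -0.0274 to 0.0261 for HMGN4. HMGB2 and HMGA2 stayed positive in every setting run, at 0.1219 to 0.4992 and 0.1826 to 0.6492 in KYSE150 and 0.3937 to 0.7501 and 0.1824 to 0.5754 in KYSE510. Depth limits HMGN5 in KYSE510, with 3 reads in 6 libraries.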
